A study of Rattus norvegicus with 6 samples.

Results

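Interferon response genes were examined as a set of 32 named genes in aneurysmal abdominal aortas of Sprague-Dawley rats, an outbred strain. The members were chosen by name, as genes known to be induced by interferons, with earlier results of these data known. All 32 were found among the 24988 genes of the count table. RNA was sequenced from 3 NP-treated aneurysms and 3 untreated aneurysms, and the series title calls NP a targeted nanotherapy. The sources used here do not give the make-up of NP, the way the aneurysms were induced, the rats' age or sex, or the times of treatment and sampling, and all 6 aortas had an aneurysm. The labels do not say that each library came from a separate rat, and p-values cover only the spread among these libraries, which may be technical. The comparison asks whether interferon response transcripts differed with NP.

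Interferons are secreted proteins that warn cells of infection or tissue damage. Type I interferons signal through the receptor chains Ifnar1 and Ifnar2 and the kinases Jak1 and Tyk2 to a complex that holds Stat2 and Irf9 and binds an element called ISRE in the promoters of antiviral genes. Interferon gamma, made by T cells and NK cells, acts mainly through an element called GAS, and induces guanylate-binding proteins, Irf1 and the immunoproteasome. In the arterial wall, smooth muscle cells, endothelial cells and macrophages can all respond.

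None of the 32 genes differed between NP-treated and untreated aneurysms beyond the spread between libraries. Of the 32, 28 had a lower fitted level in NP-treated aortas, with a median log2 fold change of -0.21. NP-treated replicate 1 held the lowest value of all 6 libraries in 24 members, and NP-treated replicate 3 held the highest in 10. Without NP-treated replicate 1, 18 members were lower and 14 higher in NP-treated aortas, and the median log2 fold change was -0.03.

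All members passed the filter on low counts, which left 16522 genes for testing. Total counts were 30939002, 26100468 and 28076224 in NP-treated replicates 1, 2 and 3 and 28717872, 27680260 and 30759349 in untreated replicates 1, 2 and 3. Member counts ran between 11 and 7490 per library. Smooth muscle markers that define the aortic media were abundant in every library, with Myh11, the smooth muscle myosin heavy chain, at 485 to 1702 CPM in NP-treated and 688 to 839 CPM in untreated aortas. CPM is a gene's count relative to its library's total, scaled by the TMM method. In whole tissue, fewer cells of a type and less RNA per cell cannot be told apart.

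By length-scaled abundance the members spanned a wide range. FPKM, the authors' deposited measure of fragments relative to transcript length and library size, averaged 1.99 over the 6 libraries for Oas2, the lowest member, and 61.7 for Irf7, the highest. Psmb8 and Psmb9, catalytic subunits of the immunoproteasome, followed Irf7 at mean FPKM levels of 58.5 and 34.4. A mean of 20 FPKM or more was found for 7 members, a mean between 5 and 20 for 20, and a mean under 5 for 5. Among these low members were the RNA sensors Ddx58 at 3.41 FPKM and Ifih1 at 2.35 FPKM, and the antiviral enzyme gene Rsad2 at 2.87 FPKM.

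**Figure D1:**
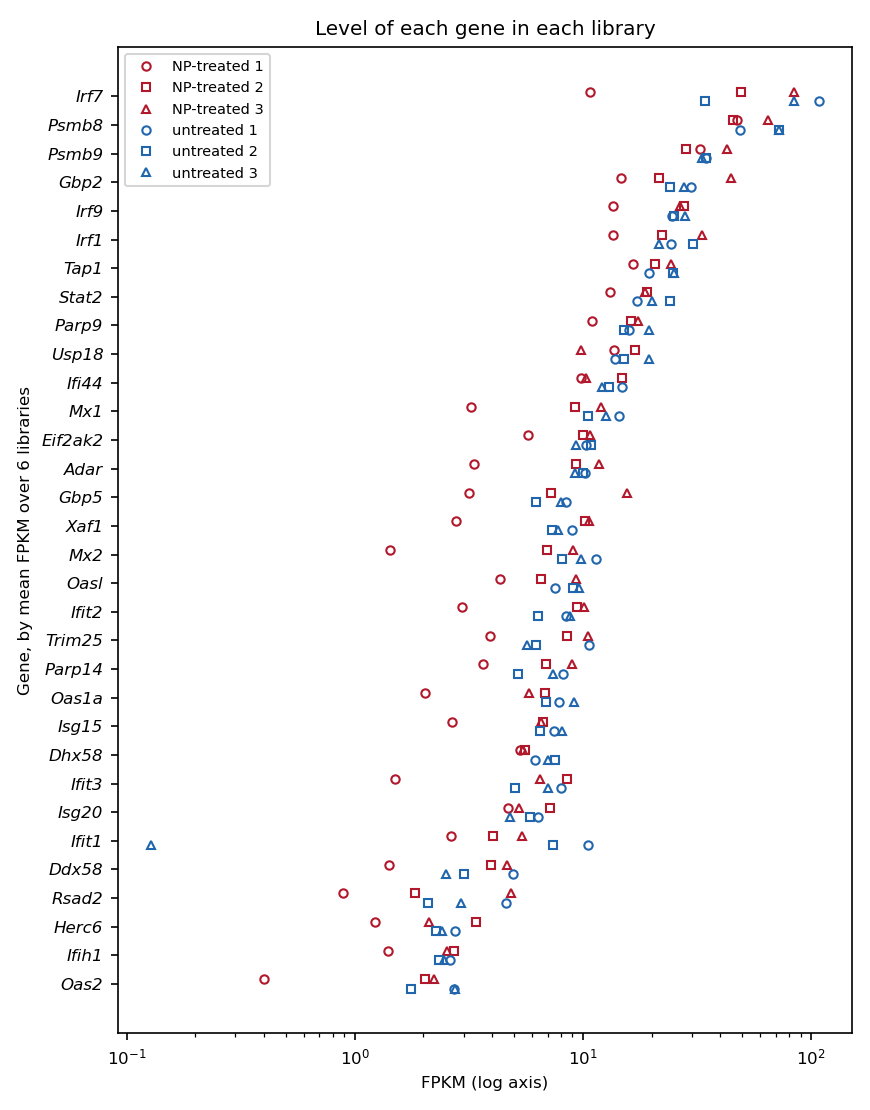
FPKM of each of the 32 genes (log axis) in 3 NP-treated libraries (red, drawn above) and 3 untreated libraries (blue, drawn below), with 1 symbol per replicate number and genes ordered by their mean over 6 libraries. The means run between 1.99 FPKM for Oas2 and 61.7 FPKM for Irf7, and Ifit1 in untreated replicate 3 stands alone at 0.128 FPKM.

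Promoter sequences are shown for 7 members from some of the roles, and all 7 hold an ISRE core. Levels of Ifit3, Oas1a, Irf7 and Gbp5 differed widely among the treated libraries, and those of Isg20, Psmb8 and Tap1 differed little. None of the 9 members whose promoter window lacked the core is shown. Each sequence runs 5′ to 3′ on the gene's strand, from 160 bases before to 20 bases after the transcription start, in the RefSeq annotation of build GRCr8. Capitals mark the ISRE core GAAANNGAAA, on the printed strand or as its reverse complement.
Ifit3 (chr1:241527166-241527345, plus strand): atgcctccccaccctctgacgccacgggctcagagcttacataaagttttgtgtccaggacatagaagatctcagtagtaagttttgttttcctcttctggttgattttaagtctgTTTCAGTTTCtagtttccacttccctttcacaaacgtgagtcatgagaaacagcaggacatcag
Oas1a (chr12:41330306-41330485, plus strand): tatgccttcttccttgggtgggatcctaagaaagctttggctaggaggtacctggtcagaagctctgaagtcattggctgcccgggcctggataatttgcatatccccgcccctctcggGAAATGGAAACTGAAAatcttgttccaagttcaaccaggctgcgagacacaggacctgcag
Isg20 (chr1:142239899-142240078, plus strand): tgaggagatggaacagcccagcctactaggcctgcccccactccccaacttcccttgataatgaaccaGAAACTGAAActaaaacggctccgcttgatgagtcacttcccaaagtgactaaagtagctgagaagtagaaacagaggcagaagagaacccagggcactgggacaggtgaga
Irf7 (chr1:205800004-205800183, minus strand): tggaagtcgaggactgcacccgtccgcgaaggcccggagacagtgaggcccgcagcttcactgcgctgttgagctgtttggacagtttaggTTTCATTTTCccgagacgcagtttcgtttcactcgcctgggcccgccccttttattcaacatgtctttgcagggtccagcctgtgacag
Gbp5 (chr2:233910839-233911018, plus strand): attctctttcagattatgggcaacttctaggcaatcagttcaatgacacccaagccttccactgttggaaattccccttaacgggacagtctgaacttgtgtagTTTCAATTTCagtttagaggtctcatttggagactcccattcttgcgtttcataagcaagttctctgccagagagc
Psmb8 (chr20:4657012-4657191, minus strand): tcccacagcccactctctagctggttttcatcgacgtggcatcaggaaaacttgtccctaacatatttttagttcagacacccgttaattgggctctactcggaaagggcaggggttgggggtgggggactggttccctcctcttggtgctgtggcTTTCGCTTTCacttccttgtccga
Tap1 (chr20:4668524-4668703, minus strand): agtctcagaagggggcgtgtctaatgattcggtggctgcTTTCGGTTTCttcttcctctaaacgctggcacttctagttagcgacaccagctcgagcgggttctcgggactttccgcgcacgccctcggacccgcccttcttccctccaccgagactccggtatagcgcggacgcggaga

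Of the 32 members, 23 were matched by symbol to a RefSeq promoter window of 300 bases, 250 before and 50 after the start. The ISRE core GAAANNGAAA, searched on both strands, was present in 14 of the 23 windows (60.9%) and in 3.92% of all 33469 windows. A GAS motif, TTCNNNGAA, which reads the same on both strands, was present in 5 of 23 (21.7%) and in 8.87% of all windows. The pair of ISRE matches in Oas1a overlap each other, and no ISRE match overlapped a GAS match. Irf1 and Irf9 had a GAS match and no ISRE match in the window. These letters describe the windows and do not show binding, and the aligner's genome build is not known to be GRCr8. Among the 23, the median log2 difference of NP-treated replicate 3 over NP-treated replicate 1 was 1.17 in the 14 with an ISRE core and 0.75 in the 9 without, as a description.

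No member was called by edgeR's quasi-likelihood test at an adjusted p of 0.05, and across all 16522 genes 0% were called. The smallest adjusted p among members by edgeR was 0.999992, and 0 members had an unadjusted p under 0.05, against 1.93% of all genes. DESeq2 called 0 members and 0.157% of all genes, and limma-voom called 0 members and 0% of genes. A log2 fold change below 0 was found for 28 of 32 members and for 44.4% of all genes, whose median was 0.04. The groups did not overlap in 2 members, Isg15 and Oas1a, both lower in NP-treated aortas, against 3.2% of all genes in that direction. No member lay wholly higher, against 2.47% of all genes.

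The lowest log2 fold changes were those of Mx2, Oas1a, Oas2, Irf7 and Mx1, between -0.80 and -0.64. Mx1, a dynamin-like GTPase that traps viral ribonucleoproteins, had 15.2, 34.9 and 48.4 CPM in NP-treated replicates 1, 2 and 3, against 56.3, 44.1 and 52.7 CPM in untreated replicates 1, 2 and 3. The treated value of replicate 3 lay inside the untreated range, and that of replicate 1 was far below both others. Mx2, its paralog, had 5.19, 20 and 27.6 CPM in NP-treated aortas, against 34.4, 26.1 and 31.5 CPM in untreated aortas, with the groups overlapping in the same way. Its log2 fold change of -0.80 (SE 0.53, adjusted p = 0.999992 by edgeR) was the lowest of any member. Counts of Mx1 and Mx2 may share reads, since the genes are close copies.

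Oas1a, an oligoadenylate synthetase that activates the nuclease RNase L, had 5.70, 15.1 and 13.9 CPM in NP-treated aortas, against 18.3, 17.0 and 22.4 CPM in untreated aortas. All treated values lay below all untreated ones, and the log2 fold change was -0.74 (SE 0.37, unadjusted p = 0.0867 by edgeR), the smallest p of the members. Oas1a is one of a cluster of near-identical rat genes, so its counts are uncertain. Oas1f, a neighbouring copy named after its values were seen, had 98, 391 and 310 counts in NP-treated and 342, 358 and 450 counts in untreated libraries, again lowest in NP-treated replicate 1. Oas2 had 1.60, 6.28 and 7.29 CPM in NP-treated aortas, against 8.83, 6.09 and 9.52 CPM in untreated aortas. Oasl averaged 22.8 ± 7.4 CPM in NP-treated and 29.7 ± 4.53 CPM in untreated aortas (SD, n = 3 each), with overlapping groups.

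The Ifit genes, whose products bind foreign RNA ends and block its translation, had 1 library that stood apart. Ifit1 had 7.76, 9.47 and 13.6 CPM in NP-treated aortas, against 25.9, 19.3 and 0.364 CPM in untreated aortas. Untreated replicate 3 held 11 Ifit1 counts, where untreated replicates 1 and 2 held 769 and 533. Ifit2 and Ifit3 were not low in that library, at 37.6 and 18.2 CPM. In the RefSeq table Ifit1 lies within the span of its copy Ifit1bl, which had 133 counts in untreated replicate 3, between the 177 and 44 counts of untreated replicates 1 and 2. Whether reads of Ifit1 were assigned elsewhere in that library was not tested. With all libraries the log2 fold change of Ifit1 was -0.56 (SE 1.06). Without untreated replicate 3 it was -1.14 (unadjusted p = 0.0128, adjusted p = 0.999995 by edgeR), and without untreated replicate 1 it was 0.07.

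Ifit2 had 14.3, 36.6 and 41.7 CPM in NP-treated aortas, against 34.0, 27.3 and 37.6 CPM in untreated aortas. Ifit3 had 4.39, 19.8 and 16.1 CPM in NP-treated aortas, against 19.5, 13.1 and 18.2 CPM in untreated aortas. For both genes NP-treated replicate 1 was lowest and the other treated libraries were within or above the untreated range.

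Genes of the Isg15 pathway did not move as one. Isg15, a ubiquitin-like protein joined to newly made proteins, had 5.01, 9.97 and 10.5 CPM in NP-treated aortas, against 11.7, 10.8 and 13.4 CPM in untreated aortas. Every treated value was below every untreated one, by a narrow margin apart from NP-treated replicate 1, and the log2 fold change was -0.50 (SE 0.32). Usp18, which removes Isg15 and damps type I receptor signalling, had 34.2, 33.8 and 20.8 CPM in NP-treated aortas, against 28.6, 33.3 and 42.8 CPM in untreated aortas. Here NP-treated replicate 3 was lowest and NP-treated replicate 1 was not low. Herc6, a ligase for Isg15 in mouse, averaged 9.76 ± 3.82 CPM in NP-treated and 10.95 ± 0.699 CPM in untreated aortas (SD, n = 3 each). Trim25, a ligase that activates the sensor encoded by Ddx58, averaged 22.7 ± 8.74 CPM in NP-treated and 22.4 ± 7.15 CPM in untreated aortas.

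Of the remaining effectors, Rsad2, the radical SAM enzyme viperin, had 4.64, 7.68 and 21.6 CPM in NP-treated aortas, against 19.98, 9.72 and 13.6 CPM in untreated aortas. Both the lowest and the highest of its 6 values were in treated libraries. Xaf1, a pro-apoptotic factor, had 3.27, 9.54 and 10.5 CPM in NP-treated aortas, against 8.69, 7.58 and 7.998 CPM in untreated aortas. Adar, an enzyme that edits double-stranded RNA, had 17.1, 38.2 and 51.5 CPM in NP-treated aortas, against 43.6, 45.8 and 42.1 CPM in untreated aortas. In Xaf1 and Adar the untreated libraries agreed closely while the treated ones spanned 3.22-fold and 3.01-fold. Eif2ak2, the RNA-activated kinase PKR, averaged 40.5 ± 9.01 CPM in NP-treated and 46.7 ± 3.94 CPM in untreated aortas. Isg20, an exonuclease, averaged 6.07 ± 0.80 and Ifi44 32.7 ± 6.43 CPM in NP-treated aortas, against 6.01 ± 0.72 and 34.9 ± 2.55 CPM in untreated aortas (SD, n = 3 each). Isg20 and Ifi44 were not low in NP-treated replicate 1, at 5.73 and 32.6 CPM.

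None of the cytosolic RNA sensors differed between groups beyond the spread. Ddx58, the sensor RIG-I, averaged 7.26 ± 3.31 CPM in NP-treated and 7.67 ± 2.56 CPM in untreated aortas. Ifih1, the sensor MDA5, had 7.73, 12.0 and 12.0 CPM in NP-treated aortas, against 12.1, 11.6 and 12.0 CPM in untreated aortas, so that NP-treated replicate 1 alone stood apart. Dhx58, their regulator LGP2, had 19.8, 16.7 and 17.5 CPM in NP-treated aortas, against 19.2, 25.2 and 23.2 CPM in untreated aortas. It was among the members with no dip in NP-treated replicate 1, and its log2 fold change was -0.32 (SE 0.19).

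Among the transcription factors, Irf7, which amplifies type I interferon production, varied most. It had 30.1, 111 and 200.4 CPM in NP-treated aortas, against 252, 85.4 and 209 CPM in untreated aortas. The treated libraries differed 6.65-fold and the untreated libraries 2.95-fold, and the groups overlapped. Its log2 fold change was -0.68 (SE 0.67). Irf1, a target and mediator of interferon gamma, had 39.5, 51.5 and 82.6 CPM in NP-treated aortas, against 59.0, 78.3 and 55.7 CPM in untreated aortas. Stat2 and Irf9, parts of the ISRE-binding complex, averaged 78.5 ± 8.04 and 44.3 ± 11.8 CPM in NP-treated aortas, against 94.8 ± 17.7 and 51.2 ± 5.06 CPM in untreated aortas (SD, n = 3 each).

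The guanylate-binding proteins, GTPases strongly induced by interferon gamma, were highest in NP-treated replicate 3. Gbp2 had 52.0, 60.5 and 134 CPM in NP-treated aortas, against 87.7, 75.2 and 86.2 CPM in untreated aortas. Gbp5 had 14.0, 25.6 and 58.7 CPM in NP-treated aortas, against 31.2, 24.4 and 31.3 CPM in untreated aortas. NP-treated replicate 3 was above every untreated library in both genes, and below every untreated library were NP-treated replicates 1 and 2 for Gbp2 and NP-treated replicate 1 for Gbp5. The Gbp5 log2 fold change of 0.18 (SE 0.48) was the highest of any member. It was 0.53 without NP-treated replicate 1 and -0.55 without NP-treated replicate 3.

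Antigen-processing members followed another order. Psmb8 had 70.7, 54.2 and 83.4 CPM in NP-treated aortas, against 61.0, 96.0 and 94.8 CPM in untreated aortas. Psmb9 had 42.3, 29.5 and 47.4 CPM in NP-treated aortas, against 37.8, 39.9 and 38.5 CPM in untreated aortas. Tap1, a subunit of the peptide transporter of the endoplasmic reticulum, had 68.2, 67.2 and 83.7 CPM in NP-treated aortas, against 68.1, 90.2 and 91.0 CPM in untreated aortas. In all of these antigen-processing genes NP-treated replicate 2, not replicate 1, was lowest. For Tap1 the margin was narrow, since untreated replicate 1 and NP-treated replicate 1 had nearly the same level. Parp9 and Parp14, ADP-ribosyltransferase family members that act in interferon signalling, averaged 58.0 ± 9.04 and 57.4 ± 20.5 CPM in NP-treated aortas, against 65.7 ± 10 and 61.0 ± 12.3 CPM in untreated aortas.

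**Figure D2:**
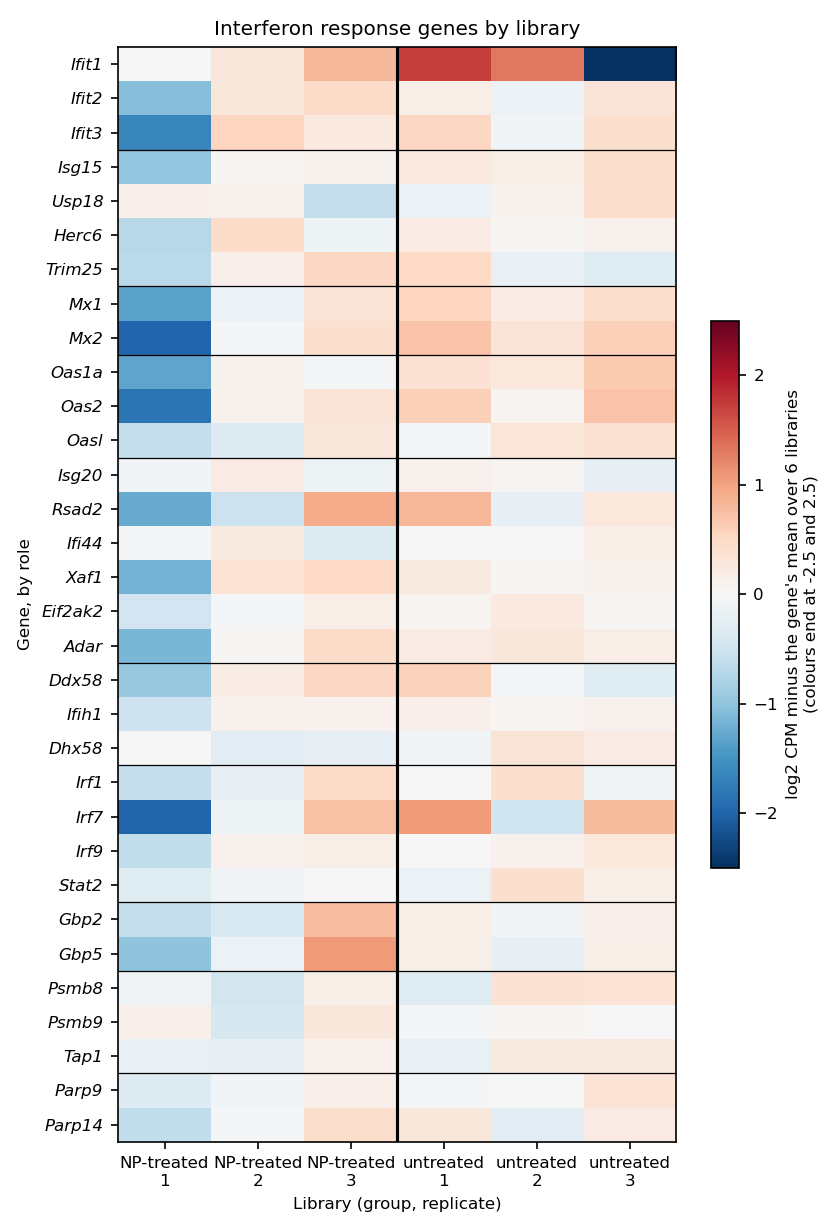
Colours give log2 CPM minus each gene's mean over the 6 libraries, with NP-treated libraries on the left and untreated libraries on the right, and lines between genes of different roles. The NP-treated replicate 1 column is blue for most genes, 24 of which have their lowest value there, and Ifit1 in untreated replicate 3 is the one dark blue cell among untreated libraries.

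Seen by library, NP-treated replicate 1 had the lowest value in 24 of 32 members, against 28.5% of all genes, and the highest in 0, against 27.3%. NP-treated replicate 3 had the highest value in 10 members, against 22% of all genes. In 9 members these extremes coincided, with NP-treated replicate 1 lowest and NP-treated replicate 3 highest, against 9.86% of all genes. Relative to each gene's own mean log2 CPM, the members' median was -0.61, -0.0015 and 0.29 in NP-treated replicates 1, 2 and 3. In untreated replicates 1, 2 and 3 it was 0.16, 0.07 and 0.21. The median over all genes lay between -0.01 and 0.01 in every library.

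The spread within groups was therefore unequal. The SD of log2 CPM was larger among NP-treated than among untreated libraries in 27 of 32 members, against 67.4% of all genes. Its median over the members was 0.55 among NP-treated and 0.21 among untreated libraries, and over all genes 0.42 and 0.28. The highest treated library exceeded the lowest over 2-fold in 18 members, whereas the same held among untreated libraries in 3, namely Ifit1, Rsad2 and Irf7. The 5 members with the larger SD among untreated libraries were Ifit1, Dhx58, Stat2, Psmb8 and Tap1.

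**Figure D3:**
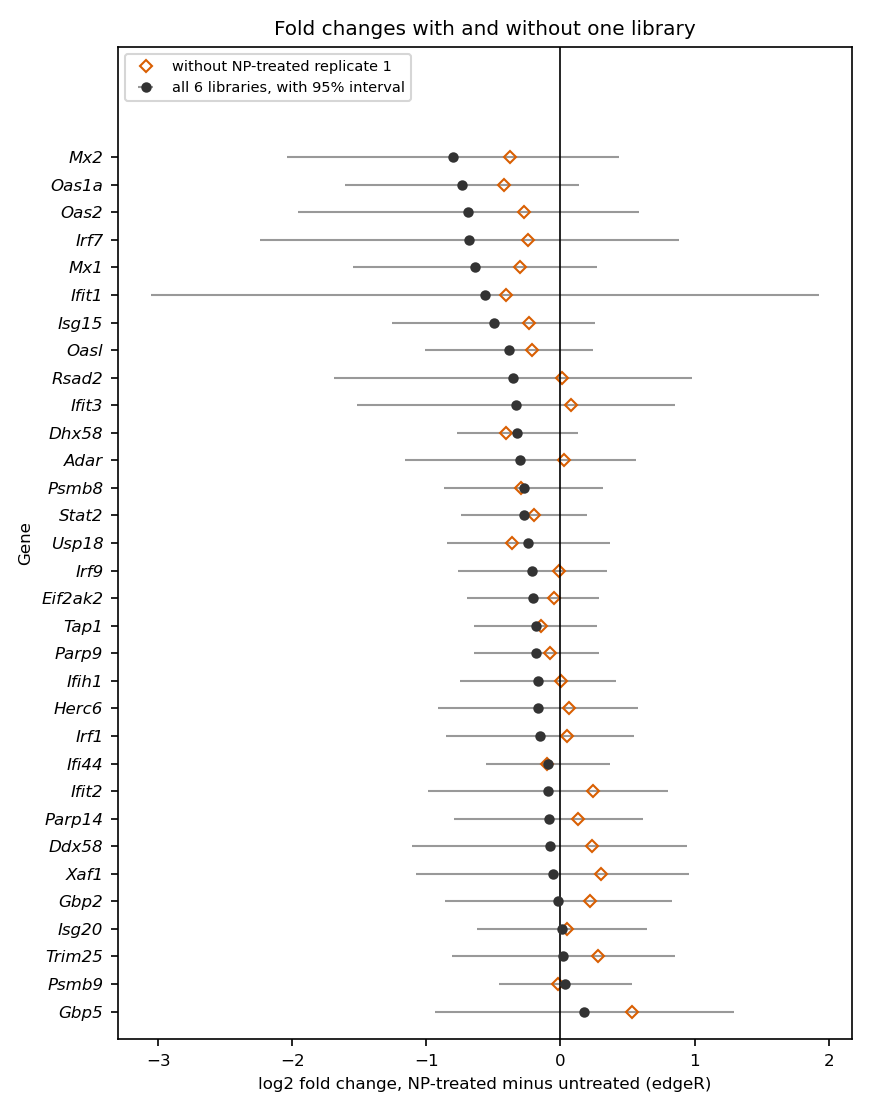
Log2 fold change of each gene, NP-treated minus untreated, from edgeR with all 6 libraries (black points with 95% intervals) and without NP-treated replicate 1 (open diamonds). All 32 intervals include 0, and 27 diamonds lie to the right of their points.

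Leaving out NP-treated replicate 1 raised the fold change of 27 members and changed the sign of 12. The share below 0 was then 18 of 32 members, against 50.3% of all genes. Mx2, Oas1a, Mx1 and Oas2 kept negative log2 fold changes of -0.37, -0.42, -0.30 and -0.27. Leaving out NP-treated replicate 3 had the opposite effect, with 30 members below 0 and a median log2 fold change of -0.39. In that fit Mx1, Oasl, Rsad2 and Gbp2 had an unadjusted p under 0.05, as had 4.1% of all genes. The smallest adjusted p of any member by edgeR was then 0.998, and none was called.

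NP-treated replicate 1 also stood apart in genes of other kinds, with values that went with gene length. The length implied by each gene's counts and FPKM was used to split the 14943 tested genes that had one into 4 bins of equal size. In NP-treated replicate 1, the median log2 CPM relative to the gene's mean was 0.28 in the bin of shortest genes and -0.24 in that of the longest. In NP-treated replicate 3 the same medians were -0.13 and 0.15. The members were of middling length, with a median of 3.11 kb, against 2.73 kb for all genes. In NP-treated replicate 1 the median of the 5 members in the bin of shortest genes was -0.08, and those of the 8, 12 and 7 members in the following bins were -0.78, -0.63 and -0.62. With an offset that removes each library's trend with length, a fit added after these values were seen, the members' median log2 fold change was -0.20 and 29 of 32 lay below 0. Over all genes the median log2 fold change was 0.07, 0.02, 0.01 and 0.04 from the shortest to the longest bin. The offset could therefore move group fold changes little. Whether length bears on the members' low values in NP-treated replicate 1 was not tested.

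**Figure D4:**
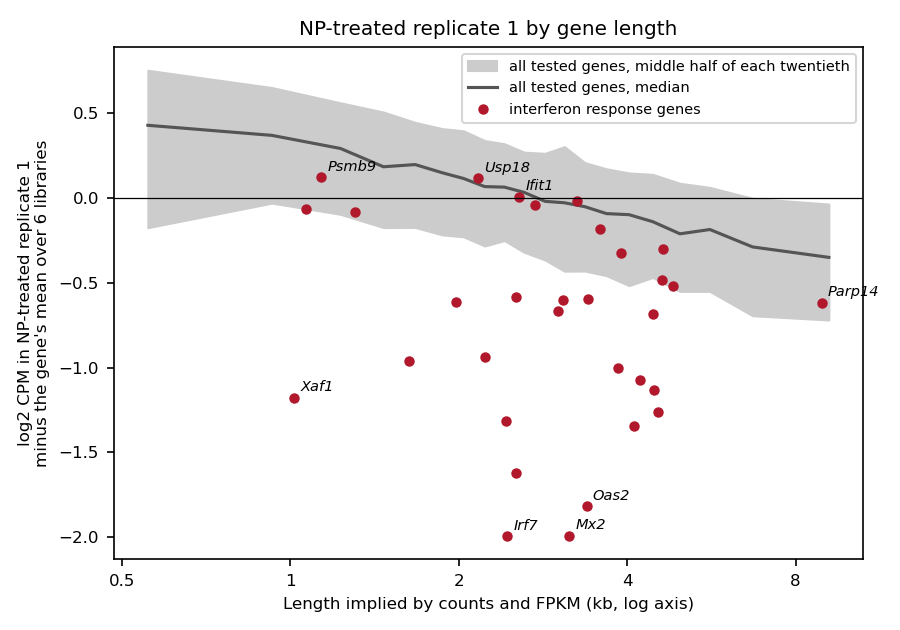
Log2 CPM in NP-treated replicate 1 minus each gene's mean over 6 libraries, against gene length in kb (log axis), for the 32 members (red points) and all tested genes (grey line for the median and grey band for the interquartile range in 20 steps of length). The grey line slopes down with length, and Irf7, Mx2 and Oas2 are the lowest members.

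Interferon transcripts themselves were nearly undetected. Ifna1, Ifna2, Ifna4, Ifna5, Ifna11, Ifnk, Ifnl1 and Ifnl3 had 0 counts in all libraries, which allows up to 3 counts, or 0.0991 to 0.109 CPM per library by counting error alone. Ifnb1, interferon beta, had 0, 1 and 8 counts in NP-treated replicates 1, 2 and 3 and 0, 3 and 0 counts in untreated replicates 1, 2 and 3. Ifng, interferon gamma, had 0, 0 and 3 counts in NP-treated libraries and 0, 3 and 2 counts in untreated libraries. Ifne had 2, 0 and 0 counts in NP-treated libraries and 5, 0 and 3 counts in untreated libraries. No ligand passed the filter on low counts, and at this depth no difference in them was detectable.

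The other genes of the pathway were taken from lists of ligands, receptors, transducers, inhibitors, sensors and further targets, 81 of which were tested. None was called by edgeR, DESeq2 or limma-voom, and 2 (2.47%) had an unadjusted p under 0.05 by edgeR, both lower in NP-treated aortas, a share near the 1.93% of all genes. Irf8, a factor of myeloid and dendritic cells, had 69.4, 98.2 and 83.2 CPM in NP-treated aortas, against 105, 154 and 131 CPM in untreated aortas. Ifi27, a mitochondrial interferon target, had 146, 149 and 178 CPM in NP-treated aortas, against 207, 225 and 264 CPM in untreated aortas. In both genes the groups did not overlap, and NP-treated replicates 2 and 3 were low as well as replicate 1. NP-treated aortas lay lower without overlap in 1 of 6 receptor genes, 3 of 15 genes of the sensor list and 4 of 33 further targets. They lay higher without overlap in 1 of the 15, and the remaining lists had 0 in either direction. Over all genes 3.2% lay lower and 2.47% higher without overlap. The log2 fold change of Irf8 was -0.64 (SE 0.22) and that of Ifi27 -0.55 (SE 0.19). By edgeR's model over all genes, Irf8 had an unadjusted p = 0.0224 and Ifi27 an unadjusted p = 0.0231, both with an adjusted p = 0.999992. Without NP-treated replicate 1 the log2 fold changes were -0.53 for Irf8 and -0.51 for Ifi27.

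The 6 receptor chains had a median log2 fold change of 0.06, with 5 above 0, and without NP-treated replicate 1 the median was -0.18 with 1 above 0. Ifnlr1, the lambda receptor, averaged 9.90 ± 0.44 CPM in NP-treated and 11.7 ± 0.74 CPM in untreated aortas. Its groups did not overlap, as held for 3.2% of all genes in that direction. Ifngr2, a chain of the gamma receptor, had 216, 71.0 and 77.9 CPM in NP-treated aortas, against 85.3, 103 and 88.7 CPM in untreated aortas. Its treated values were high in replicate 1 and below all untreated ones in replicates 2 and 3. The receptor kinases Tyk2 and Jak1 had log2 fold changes of -0.24 and -0.11. The 7 inhibitors had a median of -0.0019, with the phosphatase Ptpn6 at -0.52 and Trim24 at -0.23.

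Of 15 genes that sense nucleic acids or signal from those sensors, 11 were below 0, with a median of -0.27 (-0.30 without NP-treated replicate 1). Of 33 other interferon-stimulated genes 28 were below 0, with a median of -0.18, and without NP-treated replicate 1 the count was 21 and the median -0.09. NP-treated replicate 1 was the lowest library in 26 of these 33. The 5 other guanylate-binding and immunity-related GTPases had a median of 0.03, with Irgm at -0.28 and Gbp1 at 0.50, and 4 of them were highest in NP-treated replicate 3. The 10 further genes of MHC class I processing had 9 above 0 and a median of 0.09, and without NP-treated replicate 1 they had 6 above 0 and a median of 0.07. RT1-A2, a class I heavy chain, had 166, 302 and 307 CPM in NP-treated aortas, against 133, 170 and 188 CPM in untreated aortas. The groups overlapped, and its log2 fold change of 0.66 (SE 0.29) was not called. The smallest adjusted p of any gene by edgeR was 0.925. Counts of RT1-A2 are uncertain because class I genes are near-identical copies. Erap1, a peptide-trimming enzyme, had a log2 fold change of 0.23 (SE 0.19).

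Markers of several cell types were also lowest in NP-treated replicate 1, and those of others were not. All 6 measured endothelial markers were lowest in NP-treated replicate 1, and their summed level was 382, 1080 and 1362 CPM in NP-treated aortas, against 868, 675 and 888 CPM in untreated aortas. NP-treated replicate 1 was also lowest in 6 of 7 B and plasma cell markers, 5 of 6 adipocyte markers and 4 of 5 mast cell markers. The same held for 4 of 4 tested markers of conventional dendritic cells, and for 28.5% of all genes. It held for 4 of 6 fibroblast, 2 of 4 skeletal muscle and 1 of 6 neutrophil markers. Among 5 Schwann cell and nerve and 3 erythroid markers it held for 0. The Schwann cell and nerve markers summed to 103, 48.4 and 730 CPM in NP-treated aortas, against 312, 133 and 24.4 CPM in untreated aortas. Neutrophil markers summed to 60.3, 21.7 and 59.6 CPM in NP-treated aortas, against 103, 45.8 and 64.8 CPM in untreated aortas. Without Fabp4, whose log2 fold change was 0.38, the adipocyte markers summed to 30.8, 146 and 153 CPM in NP-treated aortas. Untreated aortas had 492, 393 and 385 CPM, so these sums were low in every treated library. Of the B and plasma cell markers, 6 were highest in untreated replicate 2. Of 7 smooth muscle markers 4 were lowest in NP-treated replicate 1. The sums of the 7 were 1922, 4093 and 4490 CPM in NP-treated aortas, against 2636, 2664 and 2370 CPM in untreated aortas.

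The macrophage markers ran otherwise, with 7 of 10 lowest in NP-treated replicate 3. They summed to 28846, 17214 and 10634 CPM in NP-treated aortas, against 14709, 30039 and 24821 CPM in untreated aortas, and Lyz2 made up most of each sum. Without Lyz2 the sums were 5152, 3619 and 2720 CPM in NP-treated aortas, against 3465, 4534 and 3907 CPM in untreated aortas, highest in NP-treated replicate 1. Of 12 T and NK cell markers 7 were lowest in NP-treated replicate 1, but their sum was mostly Cd4, which rat macrophages also express. Without Cd4 the sums were 58.8, 50.8 and 99.3 CPM in NP-treated aortas, against 67.8, 196 and 84.5 CPM in untreated aortas, with NP-treated replicate 2 lowest. Siglech, a defining marker of plasmacytoid dendritic cells in rodents, was at 0.145, 1.02 and 0.704 CPM in NP-treated aortas, against 1.92, 1.63 and 0.463 CPM in untreated aortas. Spib, on the same list and also expressed in B cells, had 1.31, 2.56 and 2.08 CPM in NP-treated aortas, against 5.22, 20.1 and 3.30 CPM in untreated aortas. It lay lower without overlap (unadjusted p = 0.0148, adjusted p = 0.999992 by edgeR), as did 3.2% of all genes. The 5 markers of that list summed to 56.5, 70.7 and 59.2 CPM in NP-treated aortas, against 63.0, 93.3 and 85.6 CPM in untreated aortas, with overlap. Of these 5 markers, 4 had a log2 fold change below 0 and Tcf4 had 0.09, and only Spib did not overlap. The part of cell composition in the members' values was not tested.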

How the data were processed

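Aortic RNA of 6 libraries was analysed from 1 table that holds counts and FPKM for each gene in every library. Per the file headers, the authors deposited whole-number counts, not normalized, and FPKM values, counts relative to length and sequencing depth. HISAT2 2.0.4 is named in the submitters' processing notes and SOAPnuke, a read filter, in the series design text. The sources used here give no counting tool, genome build, annotation or strand setting, so overlapping and near-identical genes may share or lose reads.

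Genes were kept with filterByExpr at its minimum count of 10. The groups were compared in R 4.3.3 with edgeR 4.0.16 (quasi-likelihood test, TMM scaling, group as the only term) and Benjamini-Hochberg adjustment over all 16522 genes at 0.05. Log2 fold changes are NP-treated minus untreated, and each standard error is the size of the fold change over the root of F. Log2 CPM used a prior count of 2. Gene length was taken from counts and FPKM in at least 4 libraries with 20 or more counts. The test was checked only on simulated counts with less spread than these data and larger changes than any member's. That check does not show its power here.

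All 32 members are named. Of each pathway list, genes with an unadjusted p under 0.05 were named, or otherwise the 2 of smallest p expressed at 1 CPM or more on average in either group, and other names were chosen after their values were seen. Members and lists were chosen with earlier results of these data known. Of the 98 pathway entries, 92 were found by name, 1 through an older symbol, and 5 were not matched, and of the 89 marker entries 87 were found. Alternatives were DESeq2's size factors, no count filter, a replicate block, omission of single libraries, DESeq2 1.42.0, limma-voom (limma 3.58.1), limma on log2(FPKM + 1) and a length offset. With 3 libraries per group precision is limited by their number.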

Additional observations from a re-analysis of the deposited data

How the results depend on the processing

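The count of called members was 0 in every alternative run, the count of called pathway genes was 0, and the members' median log2 fold change stayed below 0, between -0.39 and -0.03. Over all genes DESeq2 called 26, limma on log2(FPKM + 1) called 1, and the other alternatives called 0. The number of members below 0 ranged from 18 without NP-treated replicate 1 to 30 without NP-treated replicate 3. It was 28 to 31 in the alternatives that used all libraries. With the replicate number as a block it was 29 of 32, with a median of -0.23, and no call changed. Same-numbered libraries deviated from their group means with correlations of -0.17, 0.07 and -0.27 over genes. Differently numbered libraries ran from -0.18 to 0.37. The labels state no pairing, and these correlations, from 3 libraries per group, cannot settle whether the numbers pair the samples.

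Log2 fold changes of 15 members kept their sign throughout. Where the sign changed, no value was past the threshold. With each library left out, the log2 fold changes ran from -1.14 to 0.067 for Ifit1, -0.38 to 0.24 for Ifit2, -0.72 to 0.080 for Ifit3, -0.50 to 0.067 for Herc6, -0.27 to 0.31 for Trim25, -1.23 to 0.0081 for Rsad2. They ran from -0.10 to 0.079 for Isg20, -0.25 to 0.038 for Ifi44, -0.34 to 0.30 for Xaf1, -0.67 to 0.024 for Adar, -0.40 to 0.23 for Ddx58, -0.27 to 0.0079 for Ifih1, and from -0.50 to 0.051 for Irf1, -0.56 to 0.22 for Gbp2, -0.55 to 0.53 for Gbp5, -0.11 to 0.21 for Psmb9, -0.38 to 0.13 for Parp14. With the replicate block the log2 fold change of Ifit1 was 0.085, of Trim25 -9.2e-05 and of Gbp5 -0.050. By limma-voom they were 0.85, -0.011 and -0.057 for Ifit1, Trim25 and Gbp5. By limma on log2(FPKM + 1) they were 0.034, -0.020, -0.0028, -0.035 and -0.0087 for Ifit1, Trim25, Isg20, Gbp5 and Psmb9. With the length offset Isg20 was at -0.014.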

Other observations

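Further single genes of the pathway lists, already counted in the comparisons above, are described here. Oas1g, listed as a gene of its own in the deposited table and as an older symbol of Oas1a in RefSeq, had 69, 140 and 120 counts in NP-treated and 132, 128 and 164 counts in untreated libraries. Cgas, the DNA sensor that makes the second messenger for Sting1, had 1.67, 2.0 and 2.71 CPM in NP-treated aortas, against 1.11, 1.31 and 0.760 CPM in untreated aortas. Its treated values all lay above the untreated ones (unadjusted p = 0.0559, adjusted p = 0.999992 by edgeR), as held for 2.47% of all genes. Cgas was named after its values were seen. Mavs, the adaptor of the RNA sensors, lay the other way without overlap, as did 3.2% of all genes. It had 27.6, 33.4 and 32.6 CPM in NP-treated aortas, against 37.2, 40.9 and 41.7 CPM in untreated aortas. Cxcl9, a chemokine induced by interferon gamma and also named after its values were seen, had 8.09, 21.7 and 104 CPM in NP-treated aortas, against 59.0, 20.6 and 42.6 CPM in untreated aortas. As with Gbp2 and Gbp5, its lowest and highest values were both in treated libraries.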
